A study of Mus musculus with 12 samples.

Results

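Matrix metalloproteinases (MMPs), the ADAMTS proteases, the ADAMTS-like proteins and the tissue inhibitors of metalloproteinases (TIMPs) were followed in stromal cells sorted from the intestine of Rspo3-GFP reporter mice. The members were the protein-coding genes whose symbols name 1 of these families, 48 of the 18027 protein-coding genes among the 32052 genes in the count table. They comprised 20 MMPs, 19 ADAMTS proteases, 5 ADAMTS-like proteins and 4 TIMPs. RNA was sequenced from 12 libraries in 4 groups of 3: cells without and with expression of the Rspo3-GFP transgene, from the small intestine and from the colon. Per the design text, all 4 groups were stromal cells negative for Epcam, the epithelial adhesion molecule, and for CD45, the leukocyte antigen. The mice were on a C57Bl6 background, 8 to 12 weeks old, and no treatment is named for any group. The reporter marks cells by Rspo3, which encodes the Wnt-enhancing ligand R-spondin3. The labels name no promoter for the transgene and no animal for a library, so the p-values below measure the spread between libraries, which may be technical.

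MMPs are zinc-dependent proteases that are secreted or held at the cell surface and cut collagens, basement membrane proteins and other matrix components. Most are made as inactive precursors, and TIMPs block the active enzymes by binding their catalytic site. ADAMTS proteases are secreted relatives with thrombospondin repeats that cut proteoglycans such as versican or process procollagens, while ADAMTS-like proteins share the repeats but have no protease domain and bind fibrillin microfibrils. In the intestine, fibroblasts and muscle cells of the mucosa and submucosa are known sources of these genes.

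The libraries held between 6489835 and 12286054 estimated read counts, of which the members took 0.276 to 0.622%. Levels are given as CPM, counts scaled to a common library total with TMM factors, and 38 members were among the 16757 genes that passed the filter on low counts. Rspo3 itself was at 4.5 to 13.7 CPM in the GFP-negative and 191 to 196 CPM in the GFP-positive small intestine libraries, and at 2.28 to 6.51 against 117 to 161 CPM in the colon. Markers of other cell types also differed between the sorts. In the small intestine the summed level of 8 fibroblast markers was 4950 to 13600 CPM in the GFP-negative and 25300 to 38600 CPM in the GFP-positive libraries, and 7 of the 8 rose. In the colon the fibroblast ranges were 12900 to 14700 and 12900 to 15300 CPM. There 1 marker was called lower and 0 were called higher, and that 1 call was lost whenever any library was left out. Lymphatic endothelial markers rose in both tissues, 6 of 7 in each, from 200 to 589 up to 4300 to 15000 CPM and from 205 to 335 up to 18000 to 21000 CPM. Of the smooth muscle markers, 5 of 7 fell in the small intestine (3 to 5 without 1 library) and 6 of 7 in the colon. Enteric glia markers fell 6 of 6 in the small intestine, and all 8 telocyte markers fell in the colon, from 1160 to 1230 down to 92.3 to 142 CPM. The part these markers play in the results below was not tested, and in sorted bulk samples fewer cells of a type and less RNA per cell cannot be told apart. In the GFP-negative small intestine group 2 libraries stood apart in different ways. Replicate 2 had a fibroblast marker sum of 13600 CPM against 4950 and 5630 CPM in the others. Replicate 3 held 9130 CPM of leukocyte markers against 148 and 172 CPM, and its Spearman correlations over genes with the others were 0.866 and 0.863 against 0.922 between replicates 1 and 2. Counts are given without each of them.

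In the small intestine 6 members rose and 8 fell in GFP-positive cells. Mmp3, Mmp16, Adamts15, Adamtsl1, Adamtsl3 and Timp2 rose, while Mmp10, Mmp15, Mmp17, Adamts4, Adamts8, Adamts9, Adamts18 and Adamtsl2 fell (edgeR quasi-likelihood test, Benjamini-Hochberg adjusted p under 0.05 over 16757 genes). Rose and fell refer to GFP-positive against GFP-negative cells, and the error after a log2 difference is its SE. Of all genes tested, 10.9% were called in this comparison, 4.24% higher and 6.63% lower, against 14 of the 38 members tested. Adamts18, 1 of the 14, passed the filter on low counts only through GFP-negative libraries. The groups did not overlap for 19 of the 38 members tested, beside 21.9% of all genes tested. The median log2 difference was 0.01 over the 38 members tested and -0.03 over all genes. Without GFP-negative replicate 2 the calls came to 21 members, 14 higher and 7 lower, 12 of them shared with the fit of all libraries, and without GFP-negative replicate 3 to 13 members, 6 higher and 7 lower. Of all genes, 2644 of 17584 and 1567 of 17651 were called in those fits. With the replicate number as a block, 14 members were called, 8 higher and 6 lower. Adamts4 and Adamts18 were then lost, at adjusted p = 0.0856 and 0.119, and Adamts2 and Timp3 were gained, at adjusted p = 0.0382 and 0.0268.

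In the colon 3 members rose, Adamtsl1, Adamtsl3 and Timp3, and 5 fell, Mmp2, Mmp10, Adamts9, Adamts14 and Adamtsl2. Calls covered 8.69% of all genes tested in this comparison, 4.62% higher and 4.06% lower, against 8 of the 38 members tested. The groups did not overlap for 23 of the 38 members tested, beside 35.6% of all genes tested. The median log2 difference was -0.41 over the 38 members tested and -0.03 over all genes. The count fell to 5, 4, 5 and 4 members without GFP-negative replicate 1, GFP-negative replicate 2, GFP-positive replicate 1 and GFP-positive replicate 2. In both tissues, 2 members rose (Adamtsl1 and Adamtsl3), 3 fell (Mmp10, Adamts9 and Adamtsl2) and 21 tested members were called in neither. In the plot of effects by tissue these members lie at the upper right and lower left.

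**Figure D1:**
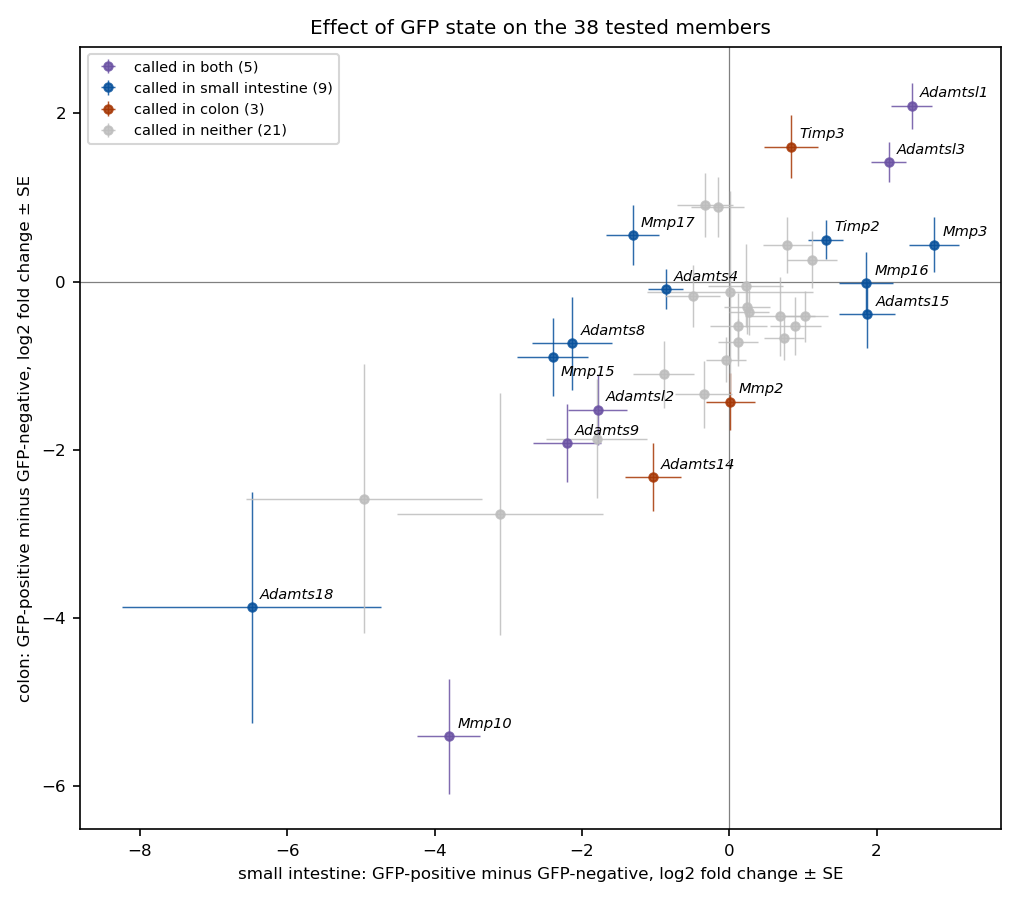
Each point is 1 of the 38 tested members, with its log2 difference between GFP-positive and GFP-negative cells in the small intestine on the horizontal axis and in the colon on the vertical axis; lines are SE and colours mark where it was called. Adamtsl1 and Adamtsl3 lie at the upper right, Mmp10 at the lower left, and Mmp3 far to the right, with a colon difference of 0.44.

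The stromelysins Mmp3 and Mmp10 cut proteoglycans, fibronectin and other MMP precursors. Their genes lie in a run of MMP genes on chromosome 9, next to each other among the members. Genes that are not members, such as Mmp1a and Mmp1b, were left out of this order and may lie between. The run held 7 members between positions 7272514 and 7699585 of GRCm38, 427 kb, all on the plus strand, in the order Mmp13, Mmp12, Mmp3, Mmp10, Mmp8, Mmp27 and Mmp7. Promoter sequences from RefSeq (GRCm38.p6) were found for 33 of the 48 members, in 36 entries, and searched over the 250 bases before each start for TGANTCA, the site of the AP-1 (Fos and Jun) factors, whose letters read alike on both strands. The letters occurred in 5 member entries, those of Mmp13, Mmp12, Mmp3, Mmp10 and Mmp7, and in 6.75% of the 32851 entries of all genes. The 100 bases before the RefSeq start of these 5 genes are shown because they belong to 1 run in which Mmp3 and Mmp10 differed in direction. They are chr9:7272414-7272513, chr9:7347274-7347373, chr9:7445722-7445821, chr9:7502242-7502341 and chr9:7691990-7692089, plus strand, in the order printed, with the matched letters in capitals. None overlaps an annotated exon, and that of Mmp12 lies within the gene, before a later RefSeq start.
Mmp13: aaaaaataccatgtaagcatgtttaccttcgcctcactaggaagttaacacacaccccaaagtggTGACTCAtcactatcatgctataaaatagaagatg
Mmp12: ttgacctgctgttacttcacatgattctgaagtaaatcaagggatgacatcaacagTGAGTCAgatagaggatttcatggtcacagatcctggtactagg
Mmp3: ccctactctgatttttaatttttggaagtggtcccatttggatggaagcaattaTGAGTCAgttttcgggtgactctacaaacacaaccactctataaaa
Mmp10: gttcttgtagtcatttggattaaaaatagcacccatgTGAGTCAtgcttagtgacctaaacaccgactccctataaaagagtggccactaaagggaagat
Mmp7: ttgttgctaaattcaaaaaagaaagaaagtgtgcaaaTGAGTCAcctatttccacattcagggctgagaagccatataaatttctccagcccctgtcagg
The matched letters began 46 bases before the start in Mmp3 and 63 bases before it in Mmp10 and Mmp7. The windows of Mmp8 and Mmp27 held no match, which says only that these letters are not there.

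Mmp3 (stromelysin-1, chr9:7445822-7455975) was at 16.2, 37.1 and 12.9 CPM in the GFP-negative and 160.1, 122 and 176 CPM in the GFP-positive small intestine libraries. All 3 positive libraries lay above all 3 negative ones, and the log2 difference was 2.79 ± 0.34, adjusted p = 0.000484. In the colon it was at 13.3, 15 and 11 CPM in negative and 19.1, 15.4 and 18.7 CPM in positive libraries, with a log2 difference of 0.44 ± 0.33, adjusted p = 0.544. The colon groups did not overlap, but the gap was small beside that in the small intestine. The GFP effect differed between the tissues by -2.35 ± 0.47 (colon minus small intestine, log2, adjusted p = 0.0253), a call lost with the replicate block (adjusted p = 0.0616) and in 7 of the 12 fits without 1 library. Among GFP-positive cells Mmp3 was lower in the colon, by a log2 difference of -3.10 ± 0.35, adjusted p = 0.00065.

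Mmp10 (stromelysin-2, chr9:7502352-7510240), which starts 46.4 kb past the end of Mmp3, moved the other way in the small intestine. Its level was 152, 327 and 195 CPM in the GFP-negative and 22.5, 13.5 and 12.1 CPM in the GFP-positive libraries there. Every positive library lay below every negative one, a log2 difference of -3.81 ± 0.43, adjusted p = 0.00037. In the colon the levels were 11, 6.97 and 3.93 CPM in negative and 0.22, 0 and 0.229 CPM in positive libraries. Mmp10 was near 0 in the GFP-positive colon libraries, and the log2 difference was -5.41 ± 0.68, adjusted p = 0.000559 (adjusted p = 0.119 with limma on log2(TPM + 1)). It was also lower in colon than in small intestine, by a log2 difference of -6.55 ± 0.66, adjusted p = 0.000578 among GFP-positive and -4.95 ± 0.46, adjusted p = 0.000353 among GFP-negative cells. The transcripts of the 2 genes share some sequence: 11.9% of the distinct 31-base words of Mmp10 occur in Mmp3 and 11.4% of those of Mmp3 in Mmp10, so a part of the reads could be assigned to either.

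**Figure D2:**
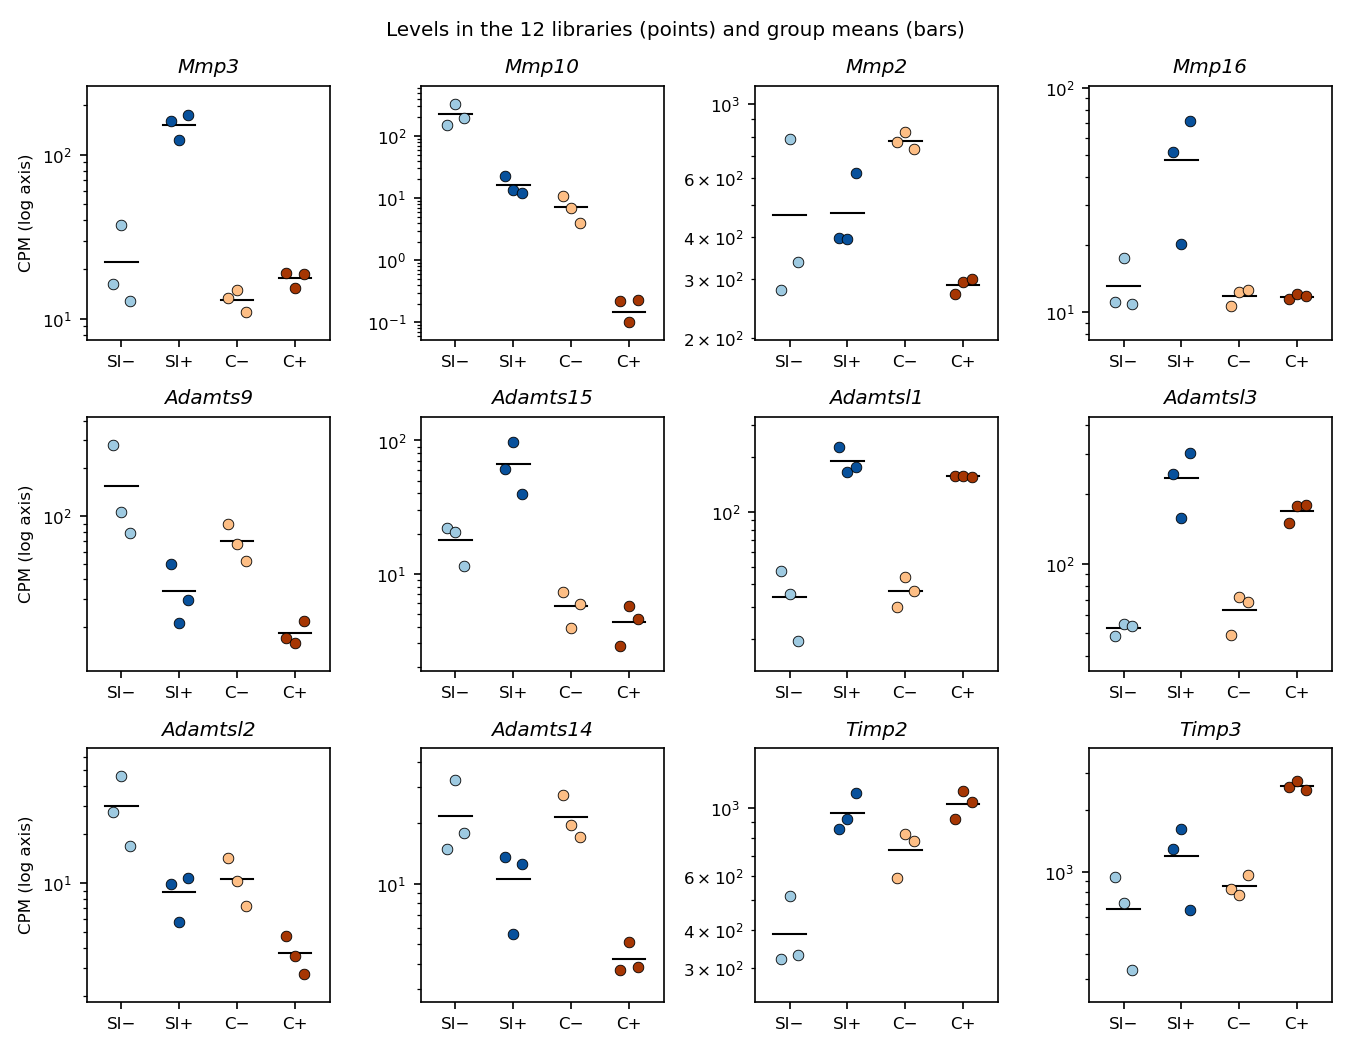
CPM on log axes in each of the 12 libraries (points) with group means (bars) for members the results turn on; SI is small intestine, C colon, and minus and plus the GFP state. The Mmp10 value of 0 in the GFP-positive colon is drawn at 0.1 CPM; Mmp3 stands at 122 to 176 CPM in the GFP-positive small intestine and at most 37.1 CPM in the other groups, and Timp3 2489 to 2759 CPM in the GFP-positive colon.

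Mmp2, gelatinase A, cuts denatured collagen and basement membrane collagen and is activated at the cell surface by Mmp14 with Timp2. In the colon it was at 769, 824 and 734 CPM in the GFP-negative and 270.3, 294 and 300.3 CPM in the GFP-positive libraries, with all positive values lower (log2 difference -1.43 ± 0.34, adjusted p = 0.0184). That call was lost when any 1 of the 6 colon libraries was left out, at adjusted p from 0.054 to 0.089. In the small intestine the levels were 279, 786 and 336 CPM in negative and 398, 394 and 624 CPM in positive libraries. Those groups overlapped, and the negative group was spread by replicate 2 at 786 CPM. The log2 difference was 0.02 ± 0.33, adjusted p = 0.988. Without that library the GFP effect on Mmp2 differed between the tissues by -2.06 (colon minus small intestine, adjusted p = 0.00277). That difference was not called with all libraries, nor without GFP-negative small intestine replicate 1 or 3.

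The membrane-type MMPs act at the cell surface. Mmp14, which activates Mmp2, was at 127, 302 and 162 CPM in the GFP-negative and 300.2, 312 and 377 CPM in the GFP-positive cells of the small intestine. In the colon it was at 354, 395 and 417 CPM in the GFP-negative and 229, 245 and 261 CPM in the GFP-positive cells. The small intestine groups overlapped by 1 library and the colon groups did not overlap, and Mmp14 was called in no comparison of the unblocked fit of all 12 libraries. Without GFP-negative small intestine replicate 2 it was called in the small intestine (log2 difference 1.20, adjusted p = 0.00135). Without GFP-negative small intestine replicate 1 or 3 it was not called there.

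Mmp15, a transmembrane MMP, was at 55.1, 54.3 and 24.4 CPM in the GFP-negative and 5.74, 12 and 7.68 CPM in the GFP-positive small intestine libraries. All positive values were lower (log2 difference -2.40 ± 0.48, adjusted p = 0.00745, but 0.0713 with limma on log2(TPM + 1)). The colon libraries held 33.6, 10.3 and 19 CPM in the GFP-negative and 6.59, 13.9 and 13.3 CPM in the GFP-positive cells and overlapped. Mmp16, also a transmembrane form, rose in the small intestine, from 11.1, 17.4 and 10.9 to 51.9, 20.10 and 71.3 CPM (log2 difference 1.86 ± 0.37, adjusted p = 0.00674). Its positive libraries were uneven, replicate 2 being the lowest and still above all negative libraries. In the colon every library, negative or positive, held 10.7 to 12.5 CPM of Mmp16, and among GFP-positive cells the colon was lower (log2 difference -2.02 ± 0.37, adjusted p = 0.00805). The small intestine call was lost with limma on log2(TPM + 1) and log2(TPM + 0.1) and with only the compared libraries (adjusted p = 0.128, 0.131 and 0.0554), and the tissue call with both limma fits (0.166 and 0.195). Mmp17, which is anchored by a lipid, was at 23.3, 28.6 and 15.8 CPM in negative and 5.66, 11.5 and 10.2 CPM in positive small intestine libraries. The groups did not overlap (log2 difference -1.31 ± 0.36, adjusted p = 0.0336), but the call was lost without GFP-negative replicate 1, GFP-negative replicate 2, GFP-positive replicate 1 or GFP-positive replicate 3, at adjusted p from 0.069 to 0.118. Colon libraries held 16.6, 8.68 and 7.6 CPM of Mmp17 in negative and 17.8, 14.9 and 15.3 CPM in positive cells.

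Among the proteoglycan-cleaving ADAMTS proteases, Adamts4 (aggrecanase-1) was at 401, 308 and 234 CPM in the GFP-negative and 146, 147 and 225 CPM in the GFP-positive small intestine libraries. Positive values lay below negative ones by a small margin (log2 difference -0.87 ± 0.24, adjusted p = 0.0363). The call was lost without GFP-negative replicate 1, GFP-positive replicate 1 or GFP-positive replicate 2, at adjusted p = 0.114, 0.129 and 0.128, and with the replicate block. In the colon Adamts4 was at 239.7, 236 and 189 CPM in the GFP-negative and 188, 192 and 244 CPM in the GFP-positive cells, and the groups overlapped. Adamts9, which clears versican, fell in both tissues. It went from 281, 106 and 78.3 to 50, 21.2 and 29.6 CPM in the small intestine (log2 difference -2.20 ± 0.46, adjusted p = 0.00996) and from 88.7, 67.3 and 52.2 to 17.1, 15.8 and 21.9 CPM in the colon (log2 difference -1.92 ± 0.46, adjusted p = 0.0232). Neither pair of groups overlapped. With limma on log2(TPM + 1) and log2(TPM + 0.1) adjusted p was 0.139 and 0.0998 in the small intestine and 0.447 and 0.321 in the colon. The colon call was also lost without GFP-negative replicate 1 or 2 or GFP-positive replicate 1 or 2, at adjusted p from 0.0586 to 0.109.

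Adamts15 and Adamts8, both versican-cleaving proteases, sit head to head on chromosome 9 with 20109 bases between them, Adamts15 at 30899155 to 30922452 on the minus strand and Adamts8 at 30942562 to 30963838 on the plus strand. Adamts15 was at 22.1, 20.4 and 11.4 CPM in the GFP-negative and 61.5, 96.8 and 39.9 CPM in the GFP-positive small intestine libraries, and rose there (log2 difference 1.87 ± 0.38, adjusted p = 0.00684, and adjusted p = 0.0515 with limma on log2(TPM + 0.1)). Adamts8 was at 19.4, 17.6 and 10.6 CPM and 3.08, 5.22 and 2.48 CPM in the same groups and fell (log2 difference -2.14 ± 0.54, adjusted p = 0.0225). Neither gene's groups overlapped, so this pair, like Mmp3 and Mmp10, moved in opposite directions in the small intestine. The Adamts8 call was lost without GFP-negative replicate 1, GFP-positive replicate 1 or GFP-positive replicate 3, at adjusted p = 0.0693, 0.0839 and 0.0816. In the colon Adamts15 was at 7.33, 3.88 and 5.95 CPM in the GFP-negative and 2.86, 5.68 and 4.57 CPM in the GFP-positive cells. Adamts8 was at 4.99, 1.6 and 1.27 CPM in the GFP-negative and 1.65, 1.06 and 1.94 CPM in the GFP-positive cells. Both pairs of colon groups overlapped. Adamts15 was lower in colon than in small intestine among GFP-positive cells (log2 difference -3.92 ± 0.42, adjusted p = 0.000578) and GFP-negative cells (log2 difference -1.66 ± 0.39, adjusted p = 0.0344). Adamts8 was lower in colon among GFP-negative cells (log2 difference -2.60 ± 0.56, adjusted p = 0.0234). Among GFP-negative cells the Adamts15 call was lost in 5 of the 6 fits without 1 library, all but that without small intestine replicate 3, at adjusted p from 0.0532 to 0.153. The Adamts8 call was lost without small intestine replicate 1 or colon replicate 2 or 3, at adjusted p = 0.0683, 0.109 and 0.11.

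Adamts14, a procollagen N-propeptidase, was at 27.6, 19.5 and 17 CPM in the GFP-negative and 3.74, 5.15 and 3.88 CPM in the GFP-positive colon libraries. Every positive library lay below every negative one (log2 difference -2.33 ± 0.40, adjusted p = 0.00286), and the call held without any 1 library. Small intestine libraries held 14.8, 32.5 and 17.9 CPM in negative and 13.6, 5.62 and 12.5 CPM in positive cells, a log2 difference of -1.04 ± 0.38, adjusted p = 0.107. Adamts2, the main enzyme of that kind, was at 101, 288 and 148 CPM in negative and 326, 323 and 447 CPM in positive small intestine libraries, a log2 difference of 1.03 ± 0.31, adjusted p = 0.0507 that missed the threshold. Without GFP-negative replicate 2 the difference was 1.56 with adjusted p = 0.00101. Without GFP-negative replicate 1 or 3 Adamts2 was not called. Adamts18, a protease of little known function, was scarce and passed the filter on low counts only through GFP-negative libraries. Its counts were 2, 25 and 6 in the GFP-negative small intestine, a mean of 1.27 CPM, with no count in the 3 GFP-positive libraries. Set against a floor of 3 counts over that group, it was at least 13-fold lower (adjusted p = 0.0383), a call lost with the replicate block and in 5 of the 6 fits without 1 library, all but that without GFP-negative replicate 1. In the colon Adamts18 averaged 2.47 CPM in negative and 0.151 CPM in positive libraries.

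Adamts10, Adamts12 and Adamts19 were lower in the colon among GFP-positive cells. Adamts10, which binds fibrillin, was at 138, 83 and 136 CPM in small intestine and 54.6, 51.8 and 52.9 CPM in colon (log2 difference -1.16 ± 0.27, adjusted p = 0.0284). For Adamts12, which cuts cartilage oligomeric matrix protein, the levels were 109, 53.2 and 121 CPM in small intestine and 48.6, 37.8 and 40.9 CPM in colon (log2 difference -1.16 ± 0.28, adjusted p = 0.0336). Adamts19, a protease known from heart valve disease, was at 66.5, 53.1 and 98.4 CPM in small intestine and 27.9, 27.9 and 27.9 CPM in colon (log2 difference -1.38 ± 0.34, adjusted p = 0.0341). In all 3 genes every colon library was below every small intestine library, and small intestine replicate 2 was the lowest of its group. Each of these calls was lost in 5 of the 6 fits without 1 library, at adjusted p from 0.074 to 0.151, and with both limma fits, and held when small intestine GFP-positive replicate 2 was the library left out. Among GFP-negative cells Adamts10 was at 141, 125 and 102 CPM in small intestine and 62.5, 135 and 105 CPM in colon. Adamts12 was at 86.1, 108 and 66.6 CPM in small intestine and 64.5, 78.7 and 66.6 CPM in colon, and Adamts19 at 30.9, 65.5 and 29.4 CPM in small intestine and 15.2, 27.8 and 18.9 CPM in colon. The GFP-negative ranges of Adamts10 and Adamts12 overlapped between the tissues, and those of Adamts19 did not.

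Of the ADAMTS-like genes, Adamtsl1 and Adamtsl3 rose in both tissues and Adamtsl2 fell in both. Adamtsl1 (chr4:85514172-86428385), also called punctin, was at 47.1, 35.5 and 19.5 CPM in the GFP-negative and 227, 167 and 178 CPM in the GFP-positive small intestine libraries. The colon values were 30.1, 43.7 and 36.6 CPM in the GFP-negative and 158, 157 and 156 CPM in the GFP-positive cells. Positive libraries were above negative ones in both tissues, with a log2 difference of 2.48 ± 0.28, adjusted p = 0.000329 in the former tissue and 2.09 ± 0.28, adjusted p = 0.000591 in the latter. Adamtsl3 (chr7:82335694-82614450), its close relative, was at 48.8, 54.9 and 54 CPM in the GFP-negative and 246, 158 and 303 CPM in the GFP-positive cells of the small intestine. In the colon it was at 49.3, 71.8 and 68.3 CPM in the GFP-negative and 149.7, 179 and 179.9 CPM in the GFP-positive cells. It too rose without overlap, by 2.17 ± 0.24, adjusted p = 0.000306 and 1.42 ± 0.23, adjusted p = 0.00221 on the log2 scale. These 4 calls held in every fit without 1 library, and neither gene shared any 31-base word with another gene's transcripts.

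Adamtsl2, a fibrillin-binding protein tied to short stature syndromes, was at 27.6, 45.8 and 17 CPM in the GFP-negative and 9.82, 5.72 and 10.8 CPM in the GFP-positive small intestine libraries, and at 14.4, 10.3 and 7.22 CPM in the GFP-negative and 4.72, 3.56 and 2.74 CPM in the GFP-positive cells in the colon. Neither pair of groups overlapped, with log2 differences of -1.79 ± 0.40, adjusted p = 0.0128 and -1.52 ± 0.42, adjusted p = 0.0378. The first call was lost without GFP-positive replicate 2 (adjusted p = 0.0574) and with both limma fits (0.812 and 0.866). The colon call was lost in 5 of 6 such fits, all but that without GFP-negative replicate 3, at adjusted p from 0.0641 to 0.157. Adamtsl4 and Adamtsl5 were called in no comparison of the unblocked fit of all 12 libraries.

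Per length, Timp2 and Timp3 were the 2 highest members in each of the 4 groups. Timp2 (chr11:118301069-118355740), which inhibits MMPs and takes part in activating Mmp2, was at 322, 515 and 331 CPM in the GFP-negative and 854, 925 and 1117 CPM in the GFP-positive small intestine libraries. All positive values were higher (log2 difference 1.31 ± 0.24, adjusted p = 0.00372, and adjusted p = 0.0529 with only the compared libraries). In the colon it was at 591, 825 and 781 CPM in the GFP-negative and 918, 1135 and 1046 CPM in the GFP-positive cells, without overlap, at a log2 difference of 0.50 ± 0.23, adjusted p = 0.268. Among GFP-negative cells Timp2 was higher in colon than in small intestine (log2 difference 0.91 ± 0.24, adjusted p = 0.0487), a call lost in 5 of the 6 fits without 1 library, all but that without small intestine GFP-negative replicate 2.

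Timp3 (chr10:86300372-86349506) binds to the matrix and inhibits ADAMTS proteases as well as MMPs. It was at 824, 775 and 968 CPM in the GFP-negative and 2564, 2759 and 2489 CPM in the GFP-positive colon libraries. The positive group was far above the negative one (log2 difference 1.61 ± 0.37, adjusted p = 0.0164), but the call was lost without GFP-negative replicate 1, GFP-negative replicate 2 or GFP-positive replicate 2, at adjusted p = 0.0674, 0.0738 and 0.0621, and with both limma fits, at 0.138 and 0.147. In the small intestine Timp3 was at 941, 708 and 335 CPM in the GFP-negative and 1286, 1619 and 650.4 CPM in the GFP-positive cells, overlapping, with replicate 3 the lowest of both groups. The log2 difference there was 0.84 ± 0.37, adjusted p = 0.183, and with the replicate block adjusted p was 0.0268. Of the 31-base words of Timp3, 21.1% occur in Syn3, the gene that overlaps it.

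Timp1, an inducible inhibitor, stayed low at 1.5 to 11.9 CPM over the 12 libraries. Its values were 1.92, 3.76 and 3.86 CPM in the GFP-negative and 1.5, 6.01 and 3.66 CPM in the GFP-positive cells of the small intestine. In the colon they were 6.6, 8.57 and 11.5 CPM in the GFP-negative and 11.9, 7.53 and 6.4 CPM in the GFP-positive cells. Both pairs overlapped, and Timp1 was called in no comparison of that fit. Timp4 was at 2.04, 1.04 and 0 CPM in the GFP-negative and 0.25, 0.591 and 0.472 CPM in the GFP-positive cells of the small intestine. In the colon it was at 0.733, 0.343 and 0.887 CPM in the GFP-negative and 0.879, 2.51 and 1.14 CPM in the GFP-positive cells, and it did not pass the filter.

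**Figure D3:**
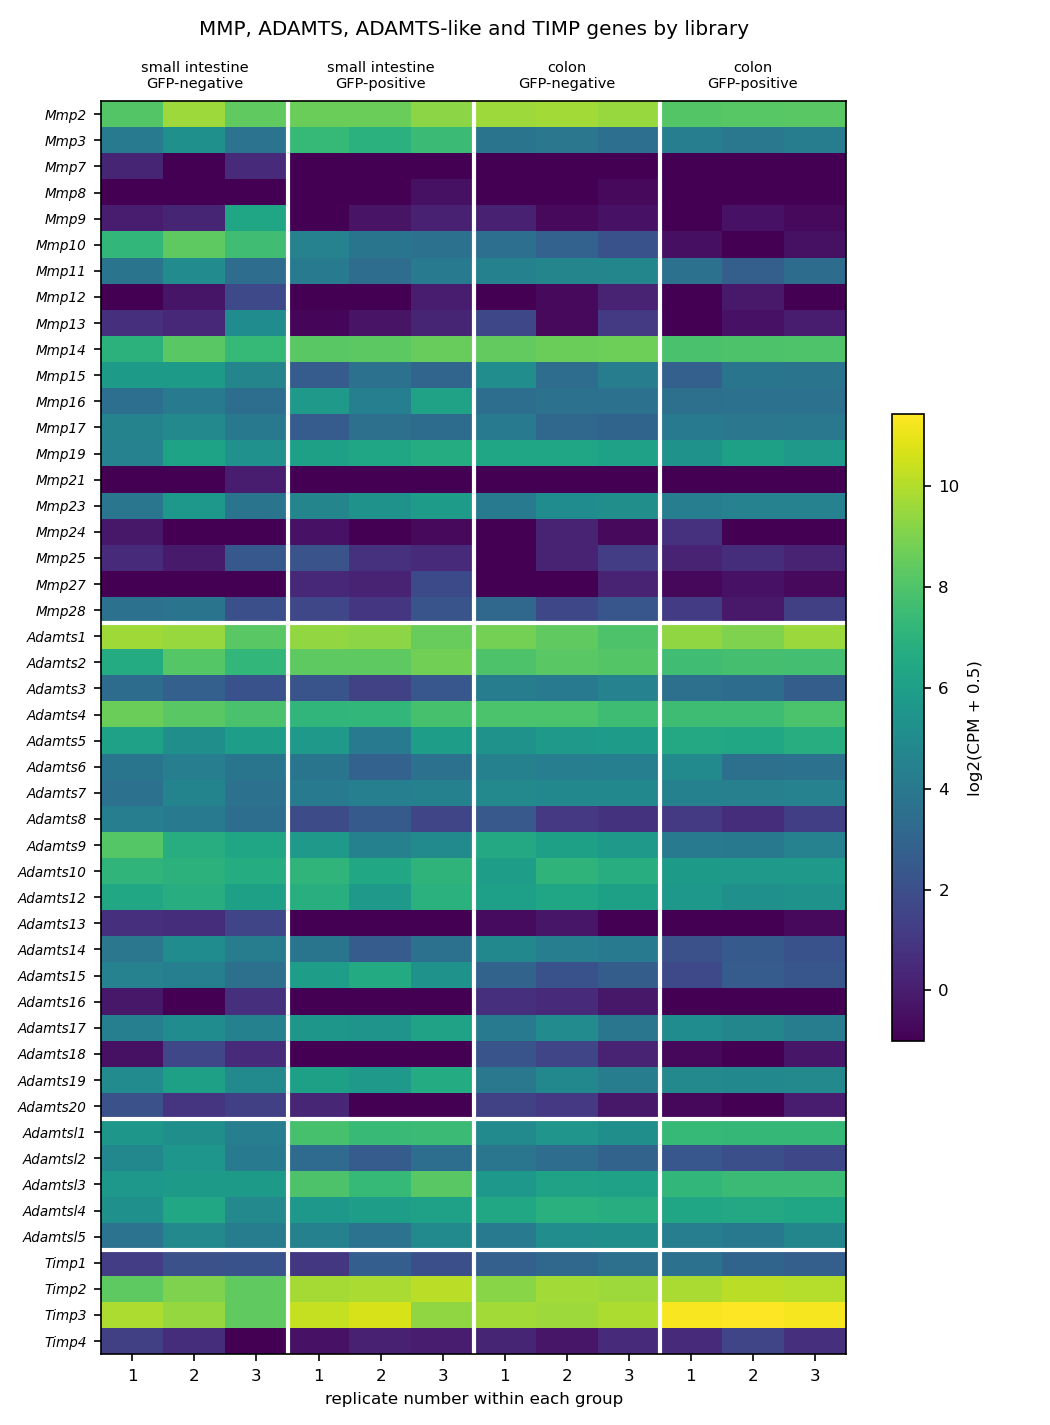
The level of each of the 48 members (rows, by family) in each of the 12 libraries (columns, by group), as log2(CPM + 0.5). Timp2 and Timp3 are bright in all 12 columns, Adamtsl1 and Adamtsl3 are brighter in the GFP-positive columns of both tissues, and Mmp10 darkens from small intestine GFP-negative to colon GFP-positive.

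To set members beside each other, levels were taken per length, as shares of the members' summed TPM, a length-normalised transcript abundance. TIMPs made up 33.8% ± 4.33 (SD, n = 3) of the members' TPM in GFP-negative small intestine and 53.0% ± 7.76 in GFP-positive. In the colon their share was 47.3% ± 2.68 in GFP-negative and 70.7% ± 1.69 in GFP-positive cells. The ranges of the negative and positive libraries did not overlap in either tissue. MMPs took 37.3% ± 10.1 and 26% ± 6.19 in the small intestine, where the ranges overlapped. In the colon MMPs took 34.0% ± 1.63 in negative and 13.3% ± 0.414 in positive cells, without overlap. ADAMTS proteases took 25.5%, 15.1%, 14.3% and 11.1% in small intestine negative and positive and colon negative and positive cells, and ADAMTS-like genes 3.31%, 5.97%, 4.36% and 4.93%. In the GFP-positive colon the leading genes were Timp3 at 41.1% and Timp2 at 29.0% of the members' TPM, while in GFP-negative small intestine Timp2 stood at 18.7%, Timp3 at 14.8%, Mmp2 at 10.4% and Mmp10 at 9.45%. These shares add to 100% within a library, so 1 class cannot rise without another falling.

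**Figure D4:**
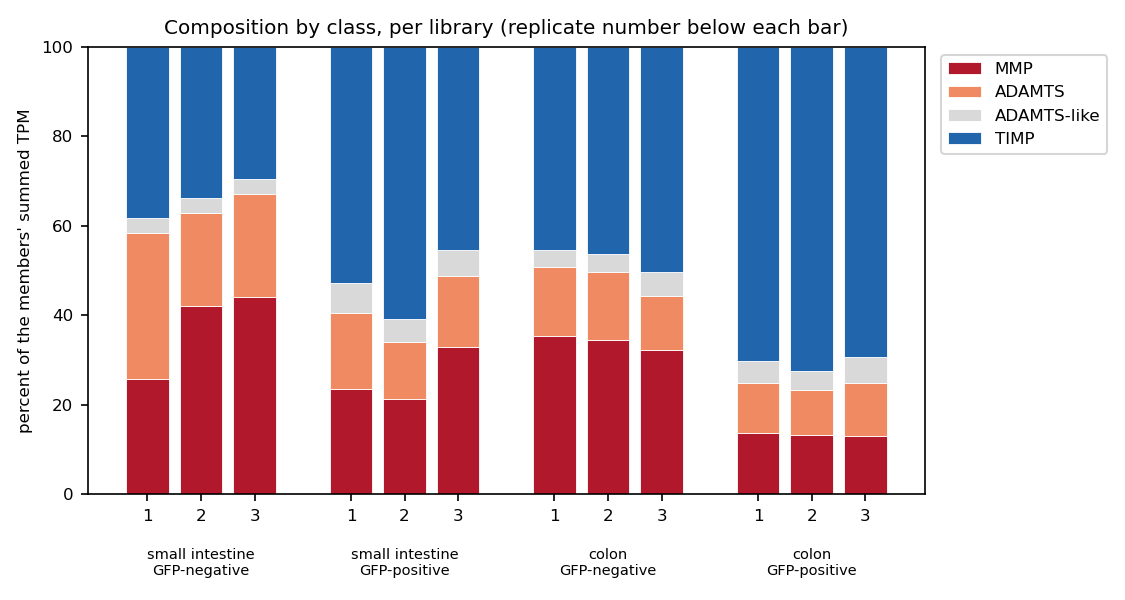
Stacked bars show, for each of the 12 libraries, the percent of the members' summed TPM held by TIMPs, MMPs, ADAMTS proteases and ADAMTS-like genes. The TIMP segment is smallest in the GFP-negative small intestine (29.5 to 38.2%) and largest in the GFP-positive colon (69.3 to 72.6%).

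Between the tissues, GFP-positive colon cells were lower than GFP-positive small intestine cells in 7 members: Mmp3, Mmp10, Mmp16, Adamts10, Adamts12, Adamts15 and Adamts19. None was called higher, while all genes tested were called in 4.57% (2.75% higher and 1.81% lower in colon). The groups did not overlap for 23 of the 38 members tested, beside 24.7% of all genes tested. The median log2 difference was -0.58 over the members tested and -0.02 over all genes. The count was 4 without any 1 of small intestine replicates 1 and 3 and colon replicates 1, 2 and 3, and 8 without small intestine replicate 2. DESeq2 called 12 members, 3 of them higher in colon. Among GFP-negative cells, Mmp10, Adamts8 and Adamts15 were lower in colon and Timp2 was higher. Of all genes tested, 4.21% were called there, 2.2% higher and 2.01% lower, and the groups did not overlap for 11 of the 38 members tested, beside 22.6% of all genes tested. The count of members called was 9 without small intestine replicate 2, with 7 higher and 2 lower in colon. Of all genes, 690 were called higher and 539 lower in that fit. Without small intestine replicate 3 the count was 4, with 0 higher. It was 2 without small intestine replicate 1 or colon replicate 1, and 1 without colon replicate 2 or 3. Both limma fits gave 9 member calls there, 7 higher and 2 lower. Over all genes they called 1318 higher and 191 lower on log2(TPM + 1), and 1186 and 208 on log2(TPM + 0.1). The median of all genes moved by 0.250 and 0.482 in these fits. Cell-type markers also differed between the tissues, and their part was not tested. Of 6 epithelial markers, 5 were higher in GFP-positive colon, at sums of 233 to 1290 against 6.31 to 10.3 CPM in small intestine. Of 8 telocyte markers, 5 were higher in GFP-negative colon, at 1160 to 1230 against 240 to 352 CPM. Comparisons that share a group of libraries are not independent of each other.

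The GFP effect differed between tissues for 1 member, Mmp3, while 2.06% of all genes were called, 1.16% higher and 0.895% lower in colon. The call was lost in 7 of the 12 fits without 1 library, at adjusted p from 0.0574 to 0.0797: those without GFP-negative replicate 1 or GFP-positive replicate 1 or 3 of the small intestine, and without GFP-negative replicate 2 or 3 or GFP-positive replicate 2 or 3 of the colon. It was also lost with the replicate block, at adjusted p = 0.0616. Without GFP-negative small intestine replicate 3 the count was 1, and without GFP-negative small intestine replicate 2, 12 members were called, among them Mmp2, Mmp14, Adamts2 and Timp2, all with a lower effect in the colon. Without replicate 2 the calls over all genes came to 1044 of 17584, 447 higher and 597 lower. In that fit the adjusted p was 0.00277 for Mmp2, 0.00176 for Mmp14, 0.00316 for Adamts2 and 0.0366 for Timp2. A member called in 1 tissue and not in the other was otherwise not shown to differ between them.

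The other 18 tested members were called in no comparison of the unblocked edgeR fit of all 12 libraries: Mmp11, Mmp13, Mmp14, Mmp19, Mmp23, Mmp25, Mmp28, Adamts1, Adamts2, Adamts3, Adamts5, Adamts6, Adamts7, Adamts17, Adamts20, Adamtsl4, Adamtsl5 and Timp1. They include Adamts1, an angiogenesis-inhibiting versicanase, and its neighbour Adamts5, 53.1 kb away on chromosome 16. Adamts1 was at 807, 739.6 and 309 CPM in the GFP-negative and 680.5, 611 and 370.3 CPM in the GFP-positive cells of the small intestine. Its colon levels were 454, 339 and 250.0 CPM in the GFP-negative and 665, 514 and 746 CPM in the GFP-positive cells. Adamts5, the chief aggrecanase of mouse cartilage, was at 68.3, 35.5 and 59 CPM in the GFP-negative and 50.3, 17.1 and 62.2 CPM in the GFP-positive cells of the small intestine. Colon libraries held 40.2, 53.1 and 57.9 CPM in the GFP-negative and 90.2, 87.8 and 107 CPM in the GFP-positive cells. Neither passed the threshold in the colon, where the log2 differences were 0.88 ± 0.36, adjusted p = 0.18 and 0.91 ± 0.38, adjusted p = 0.204. The 10 members that did not pass the filter were Mmp7, Mmp8, Mmp9, Mmp12, Mmp21, Mmp24, Mmp27, Adamts13, Adamts16 and Timp4. All but Mmp9 were at 2.95 CPM or lower in every library.

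Genes that control these enzymes were counted from a list of 16, which covers activators, inhibitors and uptake receptors of MMPs and of which 13 were tested. In the small intestine 5 rose and 3 fell, beside 10.9% of all genes tested called in that comparison. Reck, a membrane-anchored inhibitor of MMPs, rose from 41.7 ± 9.63 to 103.6 ± 30.2 CPM (mean ± SD, n = 3, log2 difference 1.31 ± 0.23, edgeR adjusted p = 0.00327). Pcsk6, a proprotein convertase, rose by 1.25 ± 0.25, and Plat, the tissue plasminogen activator, fell by 1.39 ± 0.24 on the log2 scale (edgeR adjusted p = 0.00743 and 0.00307). Mep1b, a subunit of the epithelial protease meprin, had no count in GFP-positive libraries and was at least 296-fold lower (edgeR adjusted p = 0.000829). The 6 epithelial markers summed to 170 to 601 CPM in the negative and 6.31 to 10.3 CPM in the positive small intestine libraries, and the part of this in the Mep1b value was not tested. In the colon 1 of the 13 tested was called, near the share of 8.69% over all genes tested. It was the convertase Pcsk5, which rose from 193.5 ± 23.8 to 534.7 ± 70.4 CPM (log2 difference 1.47 ± 0.25, edgeR adjusted p = 0.00259). Without 1 library the small intestine count ran from 2 to 6 higher and 2 to 3 lower, and these 5 named calls held in every such fit.

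Of 19 other matrix proteases and their helpers, 18 were tested, and 4 rose in the small intestine (3 to 8 without 1 library). None fell there, beside 10.9% of all genes tested called in either direction. Pcolce2, which enhances procollagen processing, rose from 19.8 ± 2.52 to 160.6 ± 53.7 CPM (log2 difference 3.02 ± 0.26, edgeR adjusted p = 8.03e-05). Fap, the fibroblast activation protease, rose by 1.99 ± 0.26 and Pcolce by 1.72 ± 0.33 (edgeR adjusted p = 0.000659 and 0.00537). Bmp1, the procollagen C-proteinase, rose by 1.05 ± 0.25 (edgeR adjusted p = 0.0162), a call lost without GFP-negative replicate 1 or GFP-positive replicate 3 (0.0579 and 0.0518). In the colon 4 rose and 2 fell, beside 8.69% of all genes tested called. Fap rose from 8.1 ± 1.68 to 77.3 ± 9.18 CPM, a log2 difference of 3.25 ± 0.27 (edgeR adjusted p = 4.96e-05), and Pcolce2 by 2.27 ± 0.25 (0.000233). Adam10, a membrane sheddase, rose by 1.42 ± 0.20, and Adam19, its relative, fell by 2.11 ± 0.25 (edgeR adjusted p = 0.000813 and 0.000345). Papln, papilin, 1 of 2 further ADAMTS-like genes, fell in both tissues, by 2.80 ± 0.59 in small intestine and 4.73 ± 0.65 in colon (edgeR adjusted p = 0.00833 and 0.000717).

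Among 12 known substrates, 10 were tested. In the small intestine 4 rose and 1 fell, beside 10.9% of all genes tested called. The collagen chains Col1a1 and Col1a2 rose by 1.94 ± 0.40 and 1.78 ± 0.36 on the log2 scale (edgeR adjusted p = 0.00749 and 0.00746), and Fbn1, fibrillin-1, by 1.26 ± 0.27 (0.00847). Vwf, the endothelial protein that Adamts13 cuts, fell by 6.72 ± 0.86 (edgeR adjusted p = 0.00108). Of 7 blood endothelial markers 5 fell, while mean Emcn went from 44.32 to 130.4 CPM and mean Kdr from 246.4 to 502.3 CPM, neither called. Of 6 pan-endothelial markers 0 were called there. The part of these markers was not tested. In the colon 1 rose and 3 fell, beside 8.69% of all genes tested called. Fbn2, fibrillin-2, fell from 62.7 ± 10.5 to 7.28 ± 2.39 CPM (log2 difference -3.10 ± 0.33, edgeR adjusted p = 0.000192), and its GFP effect differed between the tissues by -3.71 ± 0.44 (adjusted p = 0.00286). Vcan, versican, a main target of the ADAMTS proteases, fell by 1.57 ± 0.31 in the colon (edgeR adjusted p = 0.00694). Comp, cartilage oligomeric matrix protein, rose from 0.408 ± 0.444 to 21.8 ± 1.89 CPM (edgeR adjusted p = 0.0278), a call lost without any 1 of the 6 colon libraries, at adjusted p from 0.0644 to 0.129. The fall of Vwf in the colon was lost in 4 of those 6 fits, those without GFP-negative replicate 1 or GFP-positive replicate 1, 2 or 3. Of the 7 blood endothelial markers 2 rose and 2 fell in the colon, and all 6 pan-endothelial markers rose (1 to 6 without 1 library).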

How the data were processed

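Per the submitters' processing notes, reads were processed with Salmon 1.1.0 and R 3.6.1 on mm10; the annotation and strand setting are not given in the sources used here. The deposited tables hold estimated counts per gene, all whole numbers, and log2 TPM values, taken as log2(TPM + 1); small noncoding RNA took 89.6 to 93.5% of TPM. The tests on counts used edgeR 4.0.16 (robust quasi-likelihood fit, TMM, filterByExpr with a minimum count of 10, 1 mean per group over 12 libraries), with p-values adjusted over 16757 genes. Library totals ran from 6489835 to 12286054 counts, which limits the precision for scarce genes. Symbols came from GENCODE for 31974 of the identifiers, and 78 had none. The script was tested on simulated counts.

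Members described library by library were those called in at least 1 comparison with a highest group mean of at least 5 CPM, and every TIMP. Mmp14, Adamts1, Adamts2 and Adamts5 were called in no comparison and were described too, outside that rule. Called members with a highest group mean below 5 CPM are given by group means, and the 4 called genes with the smallest adjusted p are named from each related list. The members and all lists were chosen with earlier results of these data known. Mmp1b and Mmp20 are not analysed here, and Mmp1a was left out because its annotation is not protein coding.

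Same-numbered GFP-negative and GFP-positive small intestine libraries deviated together (correlations 0.323, 0.179 and 0.166 of deviations from the group means). The main fit did not pair them, and the replicate block was run as an alternative. GFP-negative replicate 3 of the small intestine and of the colon correlated at 0.223, and the main fit took these as separate too. Colon correlations were 0.00933, 0.0465 and 0.0903, and the numbers were not taken to pair the colon libraries. Sample descriptions give both sorts of a number the same prefix, except colon replicate 1, whose descriptions open with the tissue name alone. Replicate 3 shares 1 prefix across tissues, but no label says what a prefix stands for. Alternatives were other scaling factors, no filter, DESeq2 1.42.0, limma 3.58.1 on log2(TPM + 1) and log2(TPM + 0.1), only the compared libraries, the replicate block and leaving out each library. For the GFP effects and their difference the block paired same-numbered sorts within a tissue. For colon against small intestine it joined same-numbered libraries across tissues, an assumed pairing.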

Additional observations from a re-analysis of the deposited data

Results flagged for a closer look

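The effect of GFP state on Mmp3 differed between the tissues by edgeR's test of the difference itself, fitted without a replicate block. GFP-positive cells exceeded GFP-negative cells by a log2 difference of 2.79 ± 0.34 in small intestine and 0.44 ± 0.33 in colon, so the effect was -2.35 ± 0.47 in colon minus small intestine (edgeR, adjusted p = 0.0253, 3 libraries in each of 4 groups). The call was lost with the replicate block (adjusted p = 0.0616), with limma on log2(TPM + 0.1) (0.054) and in 7 of the 12 fits without 1 library (0.0574 to 0.0797). Of 8 fibroblast markers, 7 were called higher in GFP-positive small intestine cells. Colon calls were 0 higher and 1 lower, but colon levels of these markers were mixed. Mean Dcn went from 1972 to 3674 CPM there and mean Dpt from 813.6 to 1441 CPM. Mean Pdgfra went from 1213 to 467.7 CPM and mean Col1a2 from 4229 to 3084 CPM. Of 5 trophocyte markers, a further cell-type list, 3 were called higher in small intestine and 5 in colon. The part of either list in the Mmp3 difference was not tested.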

How the results depend on the processing

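Of the 34 member calls over the 5 comparisons, 18 held in every fit without 1 library, 12 under every other setting and 10 under both; the cause of the changes below was not tested. Counts of members called in the small intestine moved from 14 to 8 under limma on log2(TPM + 1), 8 on log2(TPM + 0.1) and 9 with only the compared libraries. In the colon the count of 8 became 4, 5 and 16. For the difference between tissues the count of 1 became 6 with no filter on low counts, 7 by DESeq2, 2 and 0 by limma on log2(TPM + 1) and log2(TPM + 0.1), and 0 with the replicate block. Between GFP-positive cells 7 became 12 by DESeq2 and 2 and 4 by limma. Between GFP-negative cells 4 became 7 with no filter, 9 by DESeq2 and by both limma fits, 1 with only the compared libraries and 8 with the replicate block, which added Mmp14, Adamts3, Adamtsl2 and Adamtsl4 (adjusted p = 0.0374, 0.0452, 0.0465 and 0.0404). For comparisons between tissues that block joined same-numbered libraries of both tissues, a pairing that was assumed and that no label states. Without 1 library the counts ranged from 11 to 21, 4 to 7, 0 to 12, 4 to 8 and 1 to 9, in the same order. In the colon the replicate block gave 9 calls, losing Adamtsl2 (adjusted p = 0.0693) and adding Adamts1 (0.0492) and Adamts5 (0.0342). The same-numbered colon sorts did not deviate together, and all but those of replicate 1 share a description prefix of unstated meaning. In 1 value the direction turned: the difference of the Mmp10 effect was -1.61 (adjusted p = 0.456) in edgeR and 2.11 (0.0142) by limma on log2(TPM + 1), with 0.932 on log2(TPM + 0.1). Calls over all genes went from 1821 to 671, 982 and 850 in the small intestine (both limma fits, only the compared libraries), from 1456 to 3016 in the colon (only the compared libraries), and from 345 to 1096 (DESeq2), 160 and 106 (limma) for the difference. They went from 765 to 1377, 376 and 502 in GFP-positive cells (DESeq2, limma) and from 706 to 1635, 1509, 1394 and 406 in GFP-negative cells (DESeq2, limma, only the compared libraries). Without 1 library they fell as low as 816, 69, 416 and 187 for the colon, the difference, the GFP-positive and the GFP-negative comparison, and without GFP-negative small intestine replicate 2 rose to 1044 for the difference and 1229 between GFP-negative cells. The log2(TPM) scales moved the median of all genes by up to 0.482 between GFP-negative and 0.328 between GFP-positive cells, and for the difference between tissues the median moved by 0.141 (DESeq2) and -0.134 (limma on log2(TPM + 0.1)). Members at a few CPM are limited by depth.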

Other observations

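Mmp9, gelatinase B, which neutrophils and macrophages are known to make, was at 81.0 CPM in GFP-negative small intestine replicate 3, from 504 counts, and at 0.731 CPM or lower in the other 11 libraries. In the same library the collagenase Mmp13 stood at 32.2 CPM, against 1.08 and 0.836 CPM in the other GFP-negative small intestine libraries. The macrophage elastase Mmp12 was there at 2.89 CPM and Mmp25, a leukocyte membrane-type MMP, at 4.82 CPM, beside up to 3.99 CPM of Mmp25 elsewhere. That library also held 721 CPM over 7 macrophage markers, against 9.61 and 11.2 CPM in the other libraries of its group. Its sum of 6 other leukocyte markers was 9130 CPM, against 148 and 172 CPM, and the neutrophil marker Csf3r was at 8.52 CPM, against 0.361 and 0 CPM, while S100a8, S100a9 and Ly6g were at 0. The part of these markers in the MMP values was not tested.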
